A study of Mus musculus with 18 samples.

Results

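Of 9 replicates of the middle part of the mouse embryo at embryonic day 9.5, 3 gave a high signal for Afp, the gene of alpha-fetoprotein, and 6 gave a low one. The Afp-high replicates were wild type 1, heterozygous 4 and homozygous mutant 2, and so held 1 of each genotype. The Afp-low replicates were wild type 5 and 7, heterozygous 3 and 8, and homozygous mutant 6 and 8a/9b. Each replicate was read on 2 array types that carry different probe sets, called type a and type b, so the Afp-high class covered 6 of the 18 arrays and the Afp-low class 12. The classes were defined by the measured Afp intensity itself, with limits of 1000 and 2000 for types a and b, and both types put the same replicates in each class.

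The genotypes are those of Nkx2-5, a homeobox gene of cardiac progenitors that the labels also name Csx: wild-type, heterozygous and homozygous mutant embryos, each cut into 3 parts, with total RNA of the middle one. Genotype is a covariate throughout and no genotype was compared. The homozygous mutant replicate written 8a/9b is numbered 8 in one array type and 9 in the other, and whether these are one RNA is not stated. Also not stated are pooling of embryos, shared litters, somite stage and the place of the cuts, so p-values reflect the spread between these arrays alone, which may be technical.

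Alpha-fetoprotein is the main plasma protein of the embryo. The visceral endoderm of the yolk sac, a layer that takes up nutrients and secretes plasma proteins, makes it in quantity. The liver bud, which grows from the ventral foregut into the mesenchyme of the septum transversum next to the heart, starts to make it as hepatoblasts form. Both tissues also secrete apolipoproteins, transthyretin and retinol binding protein, and both are governed by transcription factors of the Hnf1, Hnf4, Foxa and Gata families.

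Promoter sequence is shown for Afp, for its neighbour Alb on the same chromosome, and for Apoa2 and Apoc2, the named genes whose signal separated the classes by the widest gap. Each is the 250 bases before the annotated start on the gene's own strand, from RefSeq on build GRCm38.p6. Capitals mark GTTAAT, the core of an Hnf1 site, TGTTTAC, a Foxa site, or CAAAGT, the core of an Hnf4 site, searched on both strands, and no matches overlapped in these windows.
Afp, chr5:90490464-90490713, plus strand: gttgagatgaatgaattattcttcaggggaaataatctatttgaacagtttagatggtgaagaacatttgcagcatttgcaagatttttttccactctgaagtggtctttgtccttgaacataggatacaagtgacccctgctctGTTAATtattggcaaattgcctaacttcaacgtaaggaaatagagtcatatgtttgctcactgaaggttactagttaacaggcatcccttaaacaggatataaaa
Alb, chr5:90460620-90460869, plus strand: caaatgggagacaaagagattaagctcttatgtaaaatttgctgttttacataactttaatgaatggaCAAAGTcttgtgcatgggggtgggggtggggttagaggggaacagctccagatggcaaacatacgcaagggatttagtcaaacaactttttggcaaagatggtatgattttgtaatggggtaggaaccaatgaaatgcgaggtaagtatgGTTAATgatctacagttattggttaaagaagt
Apoa2, chr1:171224804-171225053, plus strand, the start further downstream of 2 listed: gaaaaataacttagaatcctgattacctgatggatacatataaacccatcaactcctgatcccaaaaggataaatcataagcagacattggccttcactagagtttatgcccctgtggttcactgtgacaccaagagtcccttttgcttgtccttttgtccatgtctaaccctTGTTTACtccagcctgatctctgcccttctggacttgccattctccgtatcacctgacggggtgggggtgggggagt
Apoc2, chr7:19677942-19678191, minus strand: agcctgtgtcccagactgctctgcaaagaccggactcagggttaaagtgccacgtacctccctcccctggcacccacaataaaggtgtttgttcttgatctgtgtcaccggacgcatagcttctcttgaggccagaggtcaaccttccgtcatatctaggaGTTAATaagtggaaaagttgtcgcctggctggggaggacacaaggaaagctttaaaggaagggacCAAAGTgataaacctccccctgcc
The Hnf1 core stood 105 bases before the start of Afp, 32 before that of Alb and 89 before that of Apoc2, counted to the first base of the match. The Hnf4 core stood 182 bases before the start of Alb and 24 before that of Apoc2, and the Foxa site 77 bases before that of Apoa2. Of 32851 promoter windows of this length, 6.43% held the Hnf1 core, 12.6% the Hnf4 core and 3.17% the Foxa site. A match is a description of the sequence, and binding was not measured.

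On type a the Afp probe set, a group of short oligonucleotides read as 1 value, gave an intensity of 1406 in wild type 1, 1257 in heterozygous 4 and 1775 in homozygous mutant 2. It gave 159 and 107 in wild type 5 and 7, 201 and 90.6 in heterozygous 3 and 8, and 234 and 210.4 in homozygous mutant 6 and 8a. All the Afp-low values on type a lay under the floor of 375, the limit set from the noise of the array type, so the Afp-high level was at least 3.9-fold higher there. On type b a different probe set gave 3515, 3309 and 3642 in the Afp-high replicates. It gave 337 and 396 in wild type 5 and 7, 474 and 438 in heterozygous 3 and 8, and 706 and 668 in homozygous mutant 6 and 9b. The log2 difference between class means was 1.96 and 2.61 for the 2 types in that order, the latter a 6.09-fold difference. The lowest Afp-high value was that of heterozygous 4 on both types, and the highest Afp-low value was that of homozygous mutant 6 on both types. These values made the classes and are given with no test. In whole tissue a class difference in a transcript cannot be told apart from a difference in the number of cells that carry it.

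**Figure D1:**
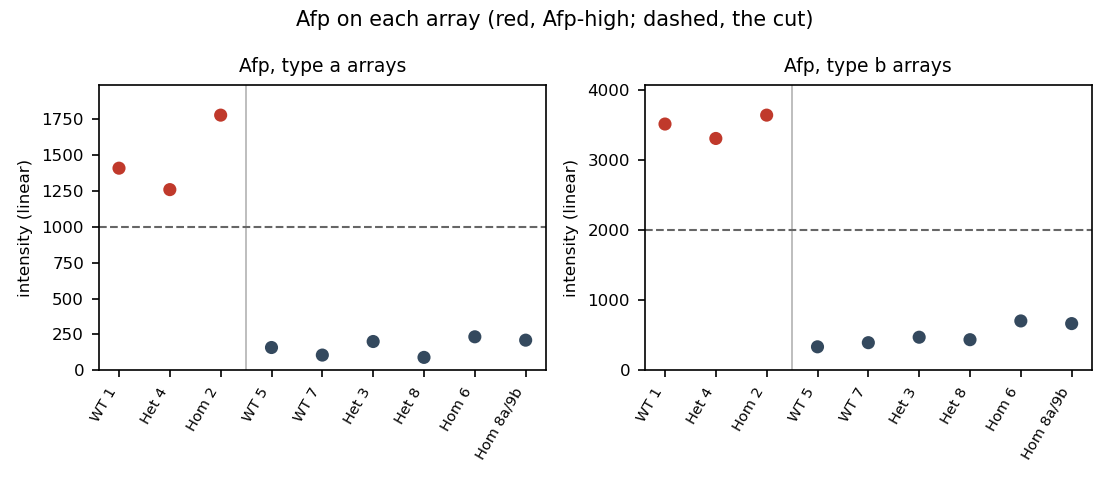
Afp intensity (linear, as deposited) on each array, type a at left and type b at right; red points are the Afp-high and dark points the Afp-low replicates, and the dashed line is the limit of the class. The Afp-high values lie between 1257 and 1775 on type a and between 3309 and 3642 on type b, and the highest Afp-low values are 234 and 706.

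The replicates differed in ways other than Afp. The control probe set for the 5′ part of 18S ribosomal RNA gave 1775, 808 and 3544 in wild type 1, heterozygous 4 and homozygous mutant 2 on type a, against 3.6 to 264 in the Afp-low replicates. On type b it gave 2506, 394 and 4561, against 111 to 932, so the classes did not overlap on type a and did on type b. The control for the middle part of 18S also separated the classes on type a (790 to 1446 against -350 to 544) and not on type b. The control for the 3′ part overlapped on both types. The part of these 18S controls in the results that follow was not tested. On type b, wild type 1 and homozygous mutant 2 also had a lower signal for the 3′ Gapdh control (51803 and 40656) than the Afp-low replicates (62461 to 116439), and heterozygous 4 did not (81392). The Afp-low replicate homozygous mutant 8a/9b stood apart in its controls, with an actin 3′ to 5′ ratio of 2.50 and 2.28 on types a and b against 0.849 to 1.41 elsewhere, and counts and key values are given with and without it. Over all probe sets of type a the Afp-high replicates correlated with each other at a Spearman rho of 0.944 to 0.953 and with the Afp-low replicates at 0.916 to 0.975. On type b these values were 0.913 to 0.942 and 0.904 to 0.951. Heterozygous 4 was closest to heterozygous 3 on both types. On type b wild type 1 and homozygous mutant 2 were closest to each other (0.942), and to the nearest replicate of their own genotype they had 0.922 and 0.920. On type a the closest of all to wild type 1 (0.956) and to homozygous mutant 2 (0.964) was homozygous mutant 6, an Afp-low replicate.

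**Figure D2:**
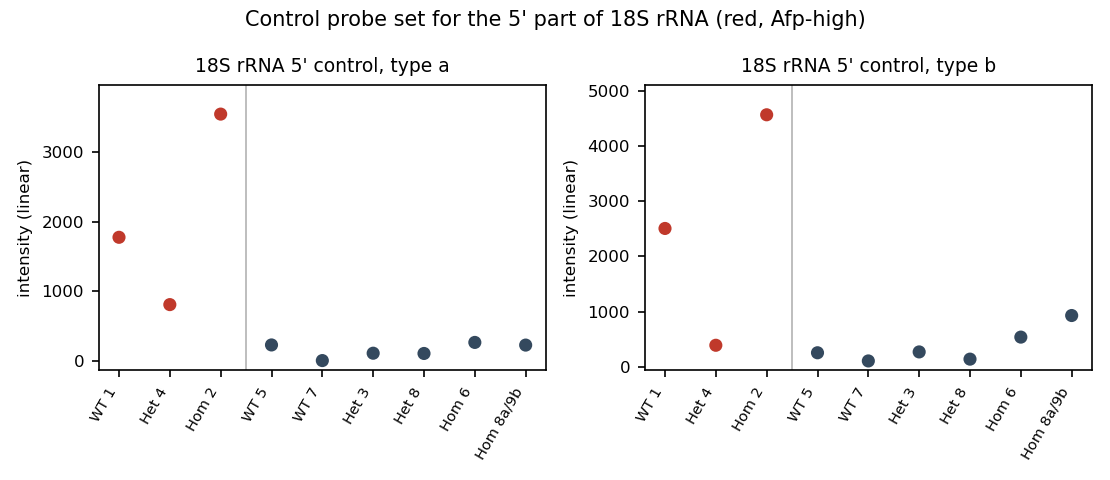
Intensity (linear) of the control probe set for the 5′ part of 18S ribosomal RNA on each array, by type; red points are Afp-high and dark points Afp-low replicates. On type a the Afp-high values lie between 808 and 3544 and the Afp-low values reach 264; on type b heterozygous 4, at 394, lies among the Afp-low replicates.

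Which transcripts go with Afp was asked of 6933 probe sets bright enough to be tested, the Afp probe sets left out. Only 2 probe sets were higher in the Afp-high class at an adjusted p under 0.05 (limma, Benjamini-Hochberg over both array types), which is 0.0288% of those tested, and 0 were lower (0%, with a smallest adjusted p of 0.31). At an unadjusted p under 0.05, 205 were higher (2.96%) and 193 lower (2.78%). All 3 Afp-high arrays exceeded all Afp-low arrays for 97 probe sets (1.4%) and lay below all of them for 93 (1.34%). A probe set had to exceed the floor on 3 arrays to be tested, so the Afp-high arrays alone could bring it in. Over 3908 genes other than Afp the median log2 difference was 0.01, and 50.9% of the differences were positive. The same counts of 2 and 0 were found without homozygous mutant 8a/9b.

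Both probe sets that rose are on type b, and the platform annotation gives neither a gene symbol. Which transcripts they match, that of Afp included, was not tested. Msa.412.0_f_at read 3218, 2379 and 2995 in wild type 1, heterozygous 4 and homozygous mutant 2, and between 287 and 612 in the Afp-low replicates. It was 5.29-fold higher in the Afp-high class, a log2 difference of 2.40 (SE 0.20, adjusted p = 0.00151). The gap between its lowest Afp-high and its highest Afp-low array was 1.96 on the log2 scale, next to 2.23 for the Afp probe set of the same type. Its adjusted p lay between 0.00283 and 0.023 when any 1 replicate was left out.

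Msa.21657.0_s_at read 2217, 3244 and 5907 in wild type 1, heterozygous 4 and homozygous mutant 2. It read 326 and 299 in wild type 5 and 7, 466 and 622 in heterozygous 3 and 8, and 1196 and 1926 in homozygous mutant 6 and 9b. The Afp-high arrays were all above the Afp-low ones, and within each class the homozygous mutant arrays were the highest. The log2 difference was 2.18 (SE 0.25, adjusted p = 0.0150). This call was lost with an adjusted p of 0.0507 to 0.272 in 7 of the 9 fits that left out 1 replicate, and was kept only without homozygous mutant 6 or homozygous mutant 8a/9b. With no genotype covariate the adjusted p was 0.362.

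Apoa2 and Apoc2, both secreted apolipoproteins of liver bud and yolk sac endoderm, had the widest gaps between the classes among named genes. Apoa2, an apolipoprotein of high density lipoprotein, read 1374, 918 and 1334 in wild type 1, heterozygous 4 and homozygous mutant 2 at 1 of its probe sets. The Afp-low replicates read -96.8 and 280.3 (wild type 5 and 7), 525 and 209.6 (heterozygous 3 and 8), and 524 and 446 (homozygous mutant 6 and 9b). The classes did not overlap, and the log2 difference of 1.18 (SE 0.16) had an adjusted p of 0.0586, which misses the threshold, and of 0.232 without homozygous mutant 8a/9b. With each replicate left out in turn the adjusted p of Apoa2 ran from 0.119 to 0.699. The brighter Apoa2 probe set had a log2 difference of 0.68 (SE 0.28) with overlap, since wild type 5 (1074) and heterozygous 3 (1294) read above homozygous mutant 2 (941).

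Apoc2, the apolipoprotein that activates lipoprotein lipase, read 899, 937 and 1675 in wild type 1, heterozygous 4 and homozygous mutant 2. It read 385 and 286 in wild type 5 and 7, 522 and 257 in heterozygous 3 and 8, and 529.7 and 549 in homozygous mutant 6 and 9b. The classes did not overlap, with a log2 difference of 1.09 (SE 0.18, adjusted p = 0.243). Spink1, a trypsin inhibitor gene that is active in gut and yolk sac endoderm, read 805, 968 and 1868 in the Afp-high replicates, against 202 to 815 in the others. Its lowest Afp-high array, wild type 1, stood just below homozygous mutant 6, and its log2 difference was 0.90 (SE 0.18, adjusted p = 0.38).

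Ttr, the carrier of thyroid hormone and of the retinol binding protein complex, read 628, 879.6 and 753 in the Afp-high replicates. The Afp-low values were 588 and 219.6 (wild type 5 and 7), 248 and 241 (heterozygous 3 and 8) and 404 and 642 (homozygous mutant 6 and 8a). Only homozygous mutant 8a reached into the Afp-high range, and the log2 difference was 0.74 (SE 0.24, adjusted p = 0.709). Rbp4, retinol binding protein itself, had a log2 difference of 0.51 (SE 0.21), with wild type 1, at 1008, inside the Afp-low range.

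**Figure D3:**
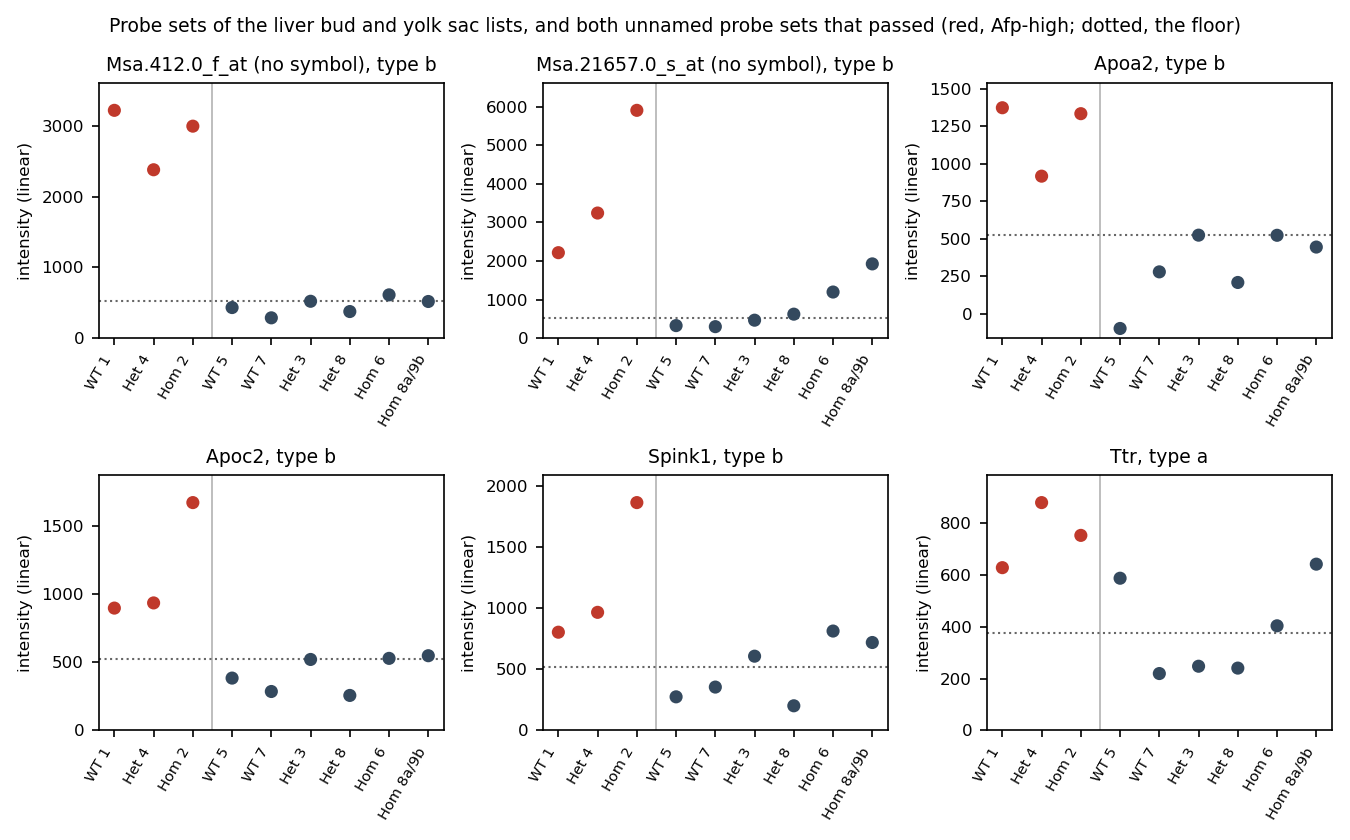
Intensity (linear) on each array of both unnamed probe sets that passed the test and of Apoa2, Apoc2, Spink1 and Ttr; red points are Afp-high, dark points Afp-low replicates, and the dotted line is the floor of the array type. For Msa.412.0_f_at, Msa.21657.0_s_at, Apoa2 and Apoc2 every red point lies above every dark one, and for Spink1 and Ttr 1 dark point or more reaches the lowest red one.

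Other genes of the same list had smaller differences, with overlap at their brightest probe sets. Alb, the albumin gene beside Afp on chromosome 5, read 729, 535 and 401 in wild type 1, heterozygous 4 and homozygous mutant 2, against -118 to 602 in the Afp-low replicates. Most of these values lie under the type b floor of 523, and the log2 difference was 0.14 (SE 0.14). Apoa1 had a log2 difference of 0.07 (SE 0.13), Apoa4 of 0.26 (SE 0.15), the protease inhibitor gene Serpina1a of 0.06 (SE 0.26) and the thrombin gene F2 of -0.18 (SE 0.28), all with overlap between the classes. Ceruloplasmin, Cp, had -0.30 (SE 0.16), also with overlap. Its Afp-high arrays (130.5 to 515) all lay under the floor, so it was at least 1.23-fold lower there. Apoe had 0.45 (SE 0.48) on type b and -0.42 (SE 0.35) at its type a probe set. On type b Apoe read 4338 in homozygous mutant 2 and 4518 in 9b, 561.5 in wild type 1 and 744 in homozygous mutant 6, and below 0 in the other 5 replicates. Igfbp1 had 0.06 (SE 0.20) at its brightest probe set and -0.28 (SE 0.34) at another, both with overlap. At its remaining probe set all Afp-high arrays (413 to 519.8) lay under the floor and below all Afp-low ones (558 to 933), so it was at least 1.42-fold lower there (fitted -0.50, SE 0.17).

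Of 42 genes in this list besides Afp, 28 were on the arrays and 12 could be tested. None passed the adjusted threshold, 10 had a positive difference, and the median was 0.20 against 0.01 over all genes. At an unadjusted p under 0.05, 4 were higher (Apoa2, Apoc2, Rbp4 and Ttr), against 3.02% of all genes. The median was 0.36 in wild type, 0.07 in heterozygous and 0.19 in homozygous mutant embryos, each Afp-high replicate against the Afp-low ones of its genotype. It was 0.54 without wild type 1 and 0.38 without heterozygous 4. The limit for testing a gene was reapplied in each such fit, so these medians do not cover the same genes. Alb, above the floor only in wild type 1 and heterozygous 3 and 4, dropped out without any 1 of them. Another 10 genes, among them Apoc1, Apoh, Fgg, Mttp and Fabp1, were under the floor on every array and give no information on the classes.

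Genes of nutrient uptake and regulation in the visceral endoderm were mostly too dim. Of 19 in the list 12 were on the arrays and 4 were tested, and Ihh, Rhox5, Dpp4 and Anpep were under the floor everywhere. Besides Spink1, the endocytic adaptor gene Dab2 had a log2 difference of 0.37 (SE 0.19): heterozygous 4 (2108) and homozygous mutant 2 (2164) read above all Afp-low replicates (1355 to 1492), and wild type 1 (1355) did not. A dimmer Dab2 probe set had 0.05 (SE 0.15). Sox17, a transcription factor of early endoderm, had 0.20 (SE 0.17) and the zinc transporter gene Slc39a4 0.01 (SE 0.13).

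Regulators of the liver bud overlapped between the classes at their brightest probe sets. Of 18 genes 15 were on the arrays and 7 tested, with a median log2 difference of 0.13, and Hhex, Foxa3, Hnf4a, Cebpa, Cebpb, Nr1h4 and Met were under the floor on every array. That median turned negative without heterozygous 4 (-0.096), heterozygous 8 (-0.070) or homozygous mutant 2 (-0.035). It was 0.02 without homozygous mutant 8a/9b, and reached 0.28 without wild type 5 and 0.23 without heterozygous 3. Genes could drop out of these fits as well. Dlk1, a membrane protein gene of hepatoblasts and of other embryonic tissues, read 8704, 7515 and 10296 in wild type 1, heterozygous 4 and homozygous mutant 2, against 4929 to 11658 (log2 difference 0.39, SE 0.18). Gata6 had 0.33 (SE 0.21) on type a and -0.29 (SE 0.22) on type b, where all Afp-high arrays (1193 to 1451) lay below all Afp-low ones (1461 to 1851), so its probe sets disagreed in sign. Foxa1, a forkhead factor of foregut endoderm, had 0.22 (SE 0.19), its relative Foxa2 0.13 (SE 0.41), Onecut1 -0.12 (SE 0.19) and Tbx3 -0.09 (SE 0.13). Gata4 was under the floor in all Afp-high replicates, with values of 264 to 353, and exceeded it in 3 of the Afp-low ones.

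Genes of mesenchyme and its fibrous matrix had positive differences beside the endodermal ones. Col1a1, a chain of type I collagen, read 2666, 1990.3 and 2945 in wild type 1, heterozygous 4 and homozygous mutant 2 on type a. It read 1152 and 803 in wild type 5 and 7, 1229.8 and 786 in heterozygous 3 and 8, and 1149 and 1529.9 in homozygous mutant 6 and 8a. The classes did not overlap, with a log2 difference of 1.21 (SE 0.23, adjusted p = 0.31), and they did not overlap at either of its other probe sets (0.90, SE 0.23, and 0.77, SE 0.21). Col1a2, its partner chain, had 1.17 (SE 0.30), 0.95 (SE 0.25) and 0.89 (SE 0.33) at 3 probe sets, of which the middle one separated the classes. Postn, the gene of the matrix protein periostin, read 989, 1164 and 3360.3 in the Afp-high replicates, and within every genotype this was above the Afp-low values. Its Afp-low values were 130.4 and 447 in wild type 5 and 7, 511 and 483 in heterozygous 3 and 8, and 1509 and 1208 in homozygous mutant 6 and 9b, so the classes overlapped over all genotypes (log2 difference 1.13, SE 0.20, adjusted p = 0.243).

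Of 20 genes in the mesenchyme list 17 were tested, 13 with a positive difference, and the median was 0.26. None passed the adjusted threshold, and 7 were higher at an unadjusted p under 0.05: Col1a1, Col1a2, Col3a1, Col5a2, Col6a1, Postn and the proteoglycan gene Lum, against 3.02% of all genes. Col3a1 (15715 to 20413 against 8439 to 15493) and Lum (595 to 1256 against 402 to 592) did not overlap between the classes, nor did Col6a1, at 877 to 1273 against 325 to 828. Over all genes 1.38% stood above in this way. Dcn, another proteoglycan gene of the matrix, had 0.33 (SE 0.20), while the growth factor receptor gene Pdgfrb had -0.74 (SE 0.34). The median was 0.32 in wild type, 0.34 in heterozygous and 0.21 in homozygous mutant embryos, and 0.28 without homozygous mutant 8a/9b. In the epicardium and septum transversum list all 6 tested genes had positive differences, with a median of 0.37, led by the adhesion molecule gene Alcam (0.65, SE 0.22) and by Hlx, a homeobox gene of the mesenchyme around liver and gut (0.45, SE 0.23). At 2 times the floor that median was 0.040.

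Heart muscle genes had negative differences. Tnnt2, cardiac troponin T of the thin filament, read 3399, 4091 and 3488 in wild type 1, heterozygous 4 and homozygous mutant 2. It read 7152 and 9253 in wild type 5 and 7, 5626 and 9219 in heterozygous 3 and 8, and 6898 and 14358 in homozygous mutant 6 and 8a. The Afp-high arrays were all below the Afp-low ones, with a log2 difference of -1.20 (SE 0.25, adjusted p = 0.38), and of -1.02 without homozygous mutant 8a/9b. Myl4, an atrial light chain of myosin, read 11960.4 to 15837 in the Afp-high class and 15841 to 34034 in the other. Myl2, the ventricular light chain, read 10592, 6558 and 2169 in wild type 1, heterozygous 4 and homozygous mutant 2, below both Afp-low values in each genotype, with 7483 to 22957 over all Afp-low replicates (log2 difference -1.19, SE 0.42).

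Of 21 heart muscle genes 12 were tested, 11 with a negative difference, and the median was -0.65. None passed the adjusted threshold, and 7 were lower at an unadjusted p under 0.05 (Tnnt2, Myl4, Tnnc1, Myh6, Myl2, Des and Nppb), against 2.48% of all genes. Tnnt2 and Myl4 stood below without overlap, against 1.07% of all genes. Tpm1, a tropomyosin gene that many cell types use, had 0.06 (SE 0.12). The summed intensity of the list was 104982 to 124140 in the Afp-high replicates and 132978 to 243819 in the Afp-low ones, without overlap. Actc1, its brightest member, overlapped, at 44810 to 56647 against 51398 to 81914. Such sums also separated the classes for the immediate early and heat shock list (95481 to 109627 against 115518 to 135884). Much of that sum is Hspa8 on type b (34308 to 48372 against 50174 to 58643). The type a probe sets of Hspa8 and of Hsp90aa1 overlapped. The limb bud list did so in the other direction (6138 to 7088 against 3913 to 5191). There 1 gene, Msx1, read 4147 to 4519 against 1975 to 3021. Of 7 limb bud genes on the arrays 3 were tested, and their median difference was -0.03 in heterozygous embryos. The sums of the secreted protein list (12635 to 15123 against 6636 to 13254) and of the mesenchyme list (68378 to 75897 against 51058 to 69887) overlapped. The median of the heart muscle list was -0.45 in wild type, -0.52 in heterozygous and -0.88 in homozygous mutant embryos, and -0.56 without homozygous mutant 8a/9b. Between the 2 Afp-low replicates of a genotype the list also differed, with a median of -0.24 for wild type 5 minus 7, -0.23 for heterozygous 3 minus 8 and -0.81 for homozygous mutant 6 minus 8a/9b. The named genes with the smallest p-values on the lower side, chosen for those p-values, included Atp2a2, the calcium pump of the sarcoplasmic reticulum (-0.45, SE 0.13), Sh3bgr (-0.62, SE 0.17) and Apobec2 (-0.75, SE 0.18), each with all Afp-high arrays below all Afp-low ones, and Myl1 (-0.81, SE 0.22) and the smooth muscle gene Tagln (-0.51, SE 0.15), which overlapped. Myog, a regulator of skeletal muscle, had 0.69 (SE 0.32), and the 9 tested somite and early muscle genes had a median of 0.13.

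**Figure D4:**
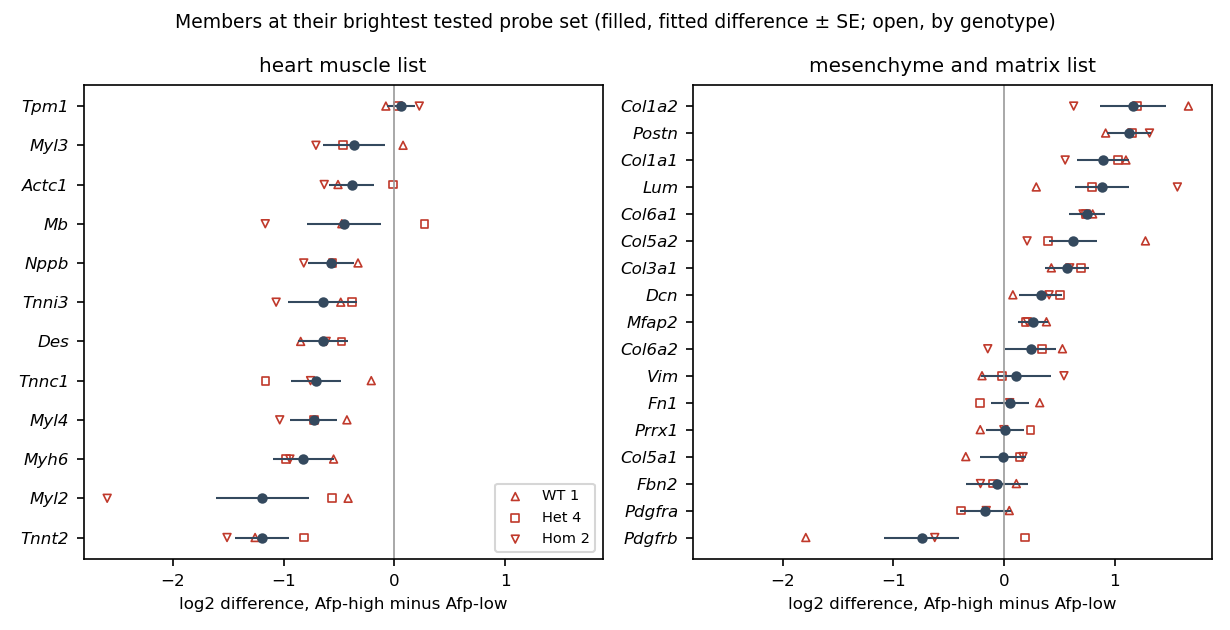
Log2 difference (Afp-high minus Afp-low) of each tested gene of the heart muscle list at left and of the mesenchyme list at right; filled points are the fitted difference with its standard error, and open red symbols the difference within each genotype. In the heart muscle list 11 of 12 fitted differences are negative, and in the mesenchyme list 13 of 17 are positive, with Pdgfrb at -0.74.

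The named genes whose Afp-high arrays stood farthest above their Afp-low arrays, over the 9 arrays of a type, were Apoa2 and Apoc2, with gaps of 0.81 and 0.71 on the log2 scale. They were followed by Psd (0.58), Mab21l2 (0.52), Msx1 (0.46), Col1a1 (0.38), E2f5 (0.35), Ets2 (0.28), Col1a2 (0.27) and Plekhh1 (0.27). For Ets2 all Afp-low arrays (240 to 496) lay under the floor of 523. It was bright enough for the test only through the Afp-high arrays, and its gap is counted from the floor. Each gap is that of the gene's best separated probe set. At brighter ones it was 0.05 and 0.02 for Col1a1, and Apoa2, Col1a2 and Ets2 overlapped (for Ets2 a log2 difference of 0.39, SE 0.26). Mab21l2, a developmental gene of eye and body wall, read 724, 620.5 and 687 in wild type 1, heterozygous 4 and homozygous mutant 2, against 213 to 434. Msx1, a homeobox gene of limb bud and other mesenchyme, read 4519, 4147 and 4257, against 1975 to 3021, a log2 difference of 0.81 (SE 0.19, adjusted p = 0.621). Prcc, also among the smallest p-values, had 0.95 (SE 0.22), 0.75 (SE 0.25) and 0.51 (SE 0.47) at its 3 probe sets, the last with overlap. On the other side Larp4b (-0.64, SE 0.17) lay below in all Afp-high arrays, and Mrps11 had -0.75 (SE 0.21). Srsf1 (-1.02, SE 0.26) had 0.02 (SE 0.30), -0.22 (SE 0.29) and -0.26 (SE 0.32) at its other probe sets. Psme3 (-1.47, SE 0.41) had -0.09 (SE 0.22) at its other one.

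In the lists of other tissues no gene passed the adjusted threshold. Among Hox genes of paralogue groups 5 to 8, which mark trunk levels, the median was 0.44 over 6 genes. Hoxa5 had 0.80 (SE 0.26), at 1000.1, 847 and 730.2 in wild type 1, heterozygous 4 and homozygous mutant 2 against 259 to 736, and Hoxc8 had -0.56 (SE 0.21). That median was 0.80 in wild type, -0.20 in heterozygous and 0.11 in homozygous mutant embryos, so its sign differed by genotype. The median was 0.13 for groups 1 to 4 and -0.07 for groups 9 to 13, where Hoxb9 had 0.72 (SE 0.23). Gut and surface epithelium had 0.18 over 11 genes, led by the protease inhibitor gene Spint2 (0.60, SE 0.18), and lysosome genes had 0.11 over 15. Endothelium had -0.14 over 7 genes, with Kdr, a receptor of endothelial growth factor, at -0.48 (SE 0.27). Of the trophoblast and decidua list, 0 of 6 genes on the arrays were bright enough to be tested.

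Red cell genes overlapped between the classes. The 17 tested genes of primitive red cells had a median of 0.15, with the embryonic globin genes Hba-x at 0.15 (SE 0.18), Hbb-bh1 at 0.26 (SE 0.23) and Hbb-y at -0.31 (SE 0.21), all overlapping. Cell cycle genes had negative differences in 19 of 26, with a median of -0.14. Cdk4, a kinase of the G1 phase, read 16990.3 to 18594 in the Afp-high and 20756 to 23954 in the Afp-low replicates, a log2 difference of -0.33 (SE 0.12). Of the cell cycle list Cdk4 and Mcm6 lay below without overlap, against 1.07% of all genes. The heat shock genes Hsp90aa1 (-0.44, SE 0.15), Hspa8 (-0.39, SE 0.18) and Hspa5 (-0.32, SE 0.17) lay below in all Afp-high arrays at their brightest probe sets, against the same 1.07%. The type a probe sets of Hsp90aa1 (-0.09, SE 0.14) and Hspa8 (-0.23, SE 0.17) overlapped, and in the immediate early and heat shock list 9 of 13 genes were negative, with a median of -0.19. The 38 tested ribosomal protein genes had a median of -0.15, which was -0.03 in wild type, 0.07 in heterozygous and -0.39 in homozygous mutant embryos. The wild-type value was the same as the median of -0.03 over all tested genes in wild type. Between the Afp-low homozygous mutant replicates the list median was -0.50, with the higher values in the replicate that stood apart in its controls. Wild type 1 and homozygous mutant 2 had the low Gapdh control on type b, and the part of that control was not tested.

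**Figure D5:**
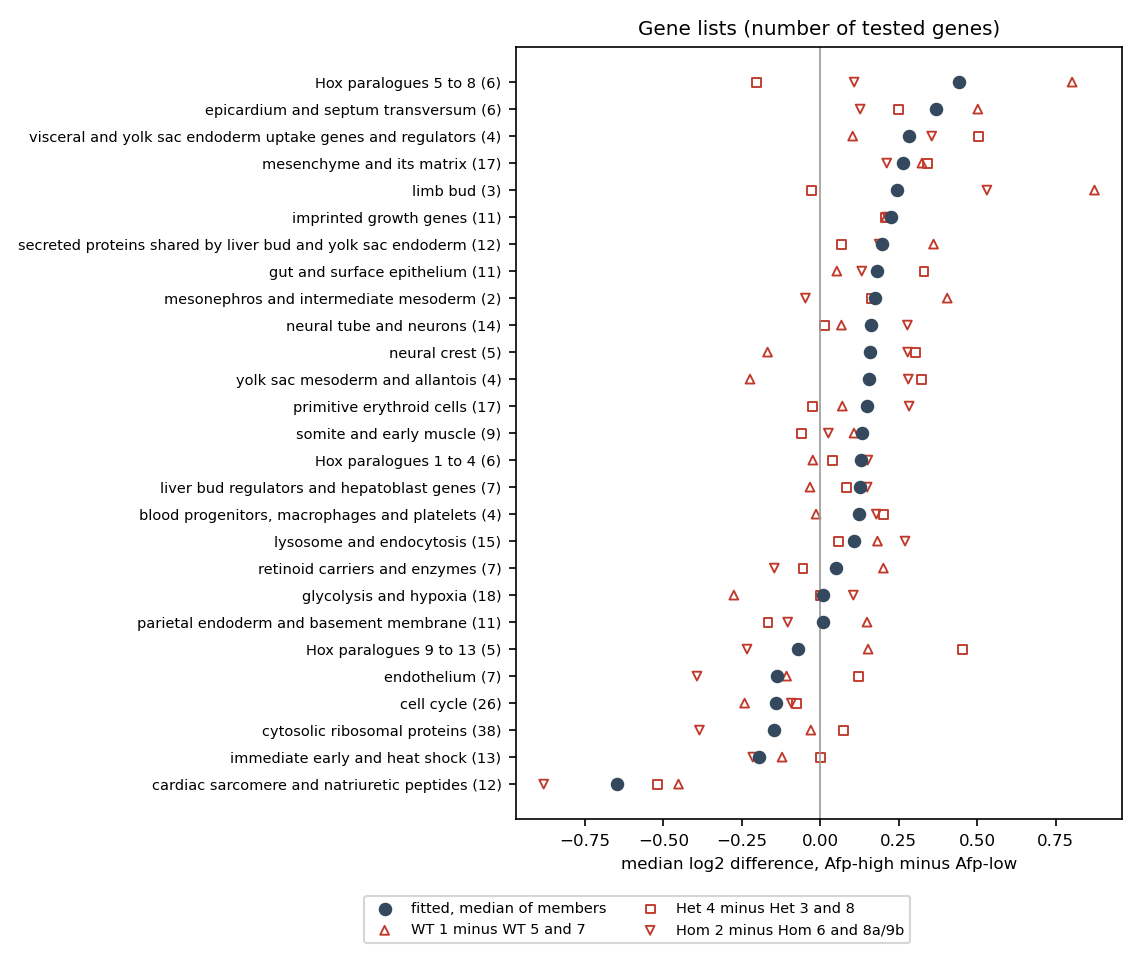
Median log2 difference (Afp-high minus Afp-low) of the tested genes of each list, with the number tested in brackets; filled points are the fitted median and open red symbols the median within each genotype. The heart muscle list lies farthest to the left at -0.65 and negative in all 3 genotypes, and the mesenchyme list and both endoderm lists of secreted and uptake genes lie to the right of 0 in all 3, as do the epicardium, imprinted, gut, lysosome and neural tube lists.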

How the data were processed

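The files hold 1 intensity per probe set and array, deposited by the authors with background subtracted and a trimmed mean near one value within each array type; array software and background method: not given in the sources used here. That scaling was kept. Control probe sets were left out, leaving 13057, and symbols came from the platform annotation (7542 probe sets with 1 symbol, 224 with several, 5291 with none). Values under a floor of 2 noise SDs (375.1 on type a, 523.1 on type b) were raised to it before taking log2, which understates differences of dim genes. Probe sets above the floor on at least 3 of 9 arrays were tested, 3969 on type a and 2966 on type b. Heterozygous 8 of type b has no value for 499 probe sets, and its fits drop it there.

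Per type, limma 3.58.1 in R 4.3.3 (lmFit, eBayes with trend, two-sided) fitted class and genotype, with Benjamini-Hochberg adjustment over both types. The fit was tested on simulated data. A list gene is given at its brightest tested probe set, a gene named for its p-value or gap at the probe set that met the rule, and other probe sets where sign or overlap differs. Named genes were those of the endoderm and liver bud lists, the 10 smallest p-values in each direction, the 10 largest gaps above, and up to 2 members of each other list. The Afp classes, the 28 lists and the comparison were chosen with earlier results of these data known. Alternatives were the floor, the filter, quantile normalization, no covariate, Afp as a number, no trend, adjustment within types and each replicate left out. The filter was reapplied in each fit with another floor or a replicate left out, so the tested genes could change. The number of arrays limits the precision. Of the named genes, 62 of 86 had a RefSeq promoter window. No probe set is annotated to Nkx2-5, so genotypes were not checked through it.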

Additional observations from a re-analysis of the deposited data

Results flagged for a closer look

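Among the 6 Afp-low arrays, 7 values of named probe sets lay far from the other 5, by a gap that chance gives in about 1 in 20 groups, and 91 probe sets were looked at. The Igfbp1 probe set read 1226 in heterozygous 3, against 597 to 798 in the others. Homozygous mutant 6 stood out for Sox17 at 609.4, against 334.5 to 411.8, and for Dlk1 at 11658.3, against 4929 to 7393.7. Homozygous mutant 8a/9b stood out for Hbb-b2 at 37750.4 (3347 to 7384.1 in the others), Pkm at 95615.4 (51247.2 to 60545.6), Hoxb1 at 4065 (1759.1 to 2485.6) and Rpl10 at 10920.4 (1248.5 to 3358.9). It is also the replicate with the highest actin 3′ to 5′ ratio.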

How the results depend on the processing

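No paired analysis was possible because the Afp-high and Afp-low replicates share no number within a genotype and the labels do not say what a number marks. Against 2 probe sets higher with Afp, 1 was found at 2 times the floor or with 6 arrays above it, and 0 with no filter on dim probe sets; leaving out 1 replicate gave 1 to 2. With each Afp-high array set only against the closest array of its genotype, an alternative chosen after seeing the data, it was 0. No setting called a probe set lower. Msa.412.0_f_at lost its call with no filter (adjusted p = 0.0704) and against the closest array (0.227). It was too dim to be tested with the filter of 6 arrays. Msa.21657.0_s_at lost its call with no genotype covariate (0.362), at 2 times the floor (0.106), with no filter (0.117) and against the closest array (0.227). Apoa2 passed with no genotype covariate (0.0345) or with adjustment within types (0.0251), and had 0.119 to 0.699 with 1 replicate left out.

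Of 1626 recomputed differences of named probe sets, 25 changed sign, in 12 probe sets, with main values of up to 0.57 (Hoxc5), 0.47 (Grb10) and -0.48 (Hbb-b2). Leaving out 1 replicate gave log2 differences of -0.14 to 0.22 for Serpina1a, -0.036 to 0.15 for Igfbp1, -0.53 to 0.10 for F2, -0.085 to 0.10 for Slc39a4, -0.23 to 0.67 for Foxa2, -0.30 to 0.16 for Onecut1, -0.041 to 0.49 for Hand1, -0.93 to 0.094 for Hbb-b2, -0.070 to 0.42 for Msx2 and -0.25 to 1.33 for Hoxc5. At 2 times the floor Serpina1a had -0.034 and Hand1 -0.022, and after quantile normalization Slc39a4 had -0.026. Against the closest array the values were -0.0079 for Igfbp1, -0.037 for Foxa2, -0.062 for Foxf1, 0.12 for Hbb-b2 and -0.26 for Grb10. The cause was not tested. Over replicates left out in turn, the heart muscle median ran from -0.73 to -0.47 the mesenchyme median from 0.19 to 0.32, that of secreted proteins from 0.15 to 0.54, that of liver bud regulators from -0.096 to 0.28 and that of Hox groups 5 to 8 from 0.11 to 0.54. At 2 times the floor the epicardium median was 0.040. In all these fits the filter was reapplied, so the genes behind a median could change.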
